A study of Mus musculus with 2 samples.

Results

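The collagen chain genes encode the polypeptides that wind by threes into the triple helices of the extracellular matrix. They were taken as every annotated row of the expression table whose gene symbol is Col, a number, a and a number, which gave 44 of 30920 genes from 45 probe sets. Col20a1 had more than 1 probe set, and for it the probe set with the highest mean of both arrays was used. By textbook class there were 11 fibrillar chains, 6 basement membrane chains (type IV) and 27 other chains. RNA came from a male C57BL/6 mouse of the control group and a male C57BL/6 mouse of the cuprizone group, both labelled cerebellum, with 1 whole-transcript array each. Cuprizone binds copper, and feeding it to mice causes loss of oligodendrocytes and of myelin. The labels repeat for both samples a diet of 0.2% cuprizone for 6 weeks, so grouping followed the treatment field, and they give no age. The title of the cuprizone sample carries the tag CPZ-5, which the labels do not explain, and the series text speaks of 2 subjects without mentioning pooling. The control diet is not described in the labels. With 1 array per group there were no replicates, so differences carry neither error nor test and describe this pair of arrays.

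Collagen is sparse in the adult brain and lies mainly in the meninges, the choroid plexus and the basement membranes of vessels. Fibrillar chains assemble into cross-banded fibrils, type IV chains into the sheet of the basement membrane, and type VI chains into beaded microfilaments that lie between both. Endothelial cells, mural cells, fibroblasts and astrocytes at the vessel wall all contribute chains, and some transmembrane collagens are made by neurons.

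Values are log2 expression levels made by RMA, which equalises the signal distribution of the arrays, and differences are cuprizone minus control. Receptor genes of the nose (symbols starting Olfr or Vmn), which brain barely transcribes, set the background bound at the upper end of their central 95%, which was 4.68 (control) and 4.70 (cuprizone). Probe sets differ in affinity, so levels are compared between arrays and with the bound, not between genes. Of 6 cerebellar neuron markers, 4 lay within the background on both arrays, among them Gabra6 (1.84 and 1.97) and Pcp2 (3.18 and 3.69), markers of granule and Purkinje cells. Calb1, which many forebrain neurons also make, lay above it on both (6.94 and 6.82), and Car8 on the control array only (4.91 and 4.49). All 8 forebrain neuron markers lay above it on both, and the tissue is called here by its label only. All 10 myelin markers were lower by 1.5-fold or more, as were 223 of 16559 measured genes (1.35%), which checks the treatment label. Measured genes are those with at least 1 value of 4.34, the median of all values, or more. A gene that reached this on 1 array alone had to be higher on that array, which limits every count of measured genes below. Scaling the arrays on hybridization or poly-A spike-in probe sets would lower every difference by 0.26 or 0.38, so that directions below are relative to the other genes of the arrays.

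Of the collagens, 26 (59.1%) lay above the background on both arrays, against 41.1% of all genes, 4 on 1 array and 14 on neither. By class these were 10 of 11 fibrillar chains on both arrays, 3 of 6 basement membrane chains and 13 of 27 others. The 4 chains above it on 1 array were all in the class of others and all above it on the cuprizone array only. Each member was read by 14 to 55 probes (median 29), all in probe sets annotated as unique.

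**Figure D1:**
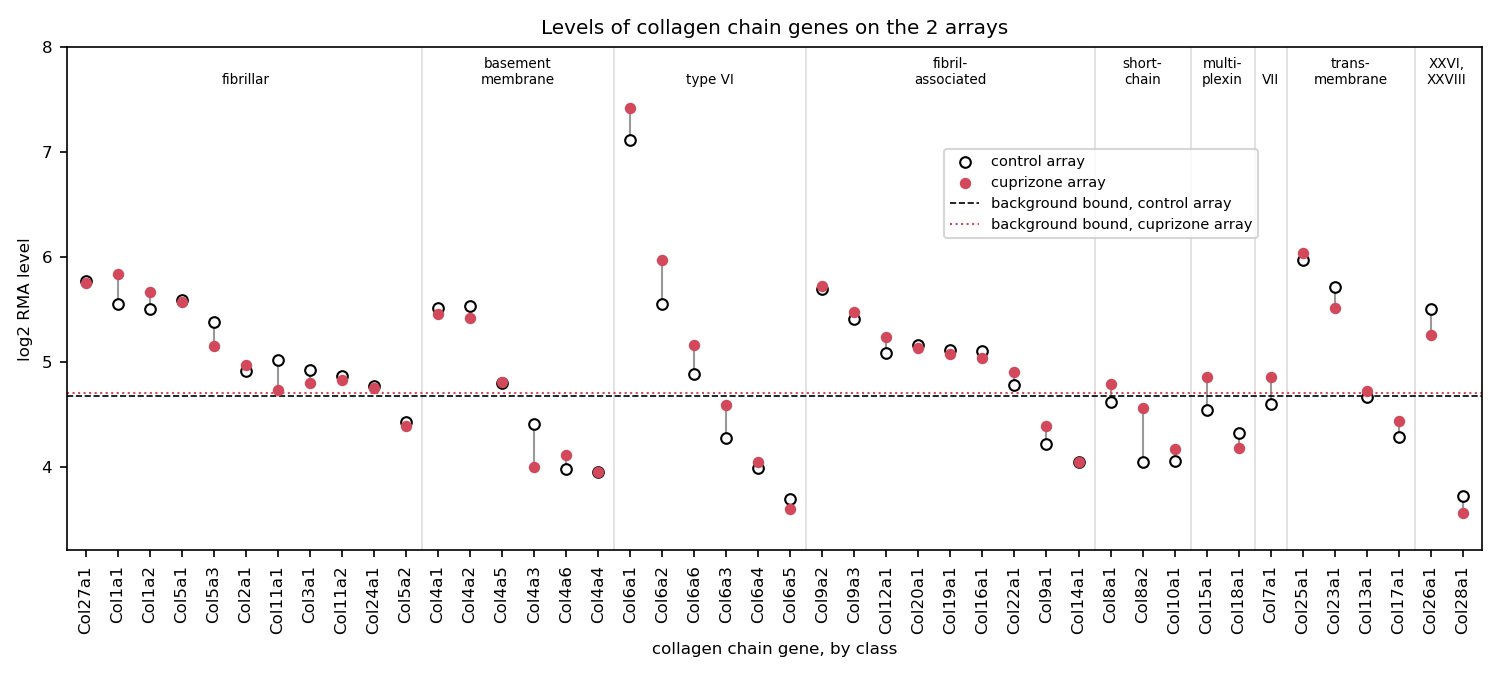
Log2 RMA level (y axis) of each of the 44 collagen chain genes (x axis, by class), with the control array as open circles and the cuprizone array as filled circles. The horizontal lines are the background bounds, 4.68 (control) and 4.70 (cuprizone), and 14 genes lie below both; heights of different genes are not comparable.

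No collagen differed by 1.5-fold between the arrays as deposited, whereas 1 and 4 measured members passed it with hybridization and poly-A scaling. Over all 44 members 23 were higher on the cuprizone array, 19 lower and 2 listed at the same value, with a median difference of 0.02, whereas over all 30920 genes 48.1% were higher, 46.4% lower and the median was 0.00. Among the 36 measured members the count at least 1.5-fold higher was 0 where 1.6% of measured genes were, and the count at least 1.5-fold lower was 0 where 1.35% were. The median absolute difference of the measured members was 0.14, as it was over all measured genes (0.14). At a lower fold of 1.2, chosen after the values were seen, 7 of 36 measured members were higher and 2 lower, against 11.3% and 12.3% of measured genes. Of the 7 higher, Col6a3 and Col8a2 lay within the background on both arrays and Col15a1 on the control array, and of the 2 lower, Col4a3 lay within it on both. Among the 26 chains above the background on both arrays, 4 were at least 1.2-fold higher (Col6a1, Col6a2, Col6a6 and Col1a1) and 1 was at least 1.2-fold lower (Col11a1), against 7.49% and 10.2% of all such genes. With median centring Col1a1 (0.25) and Col6a6 (0.24) fell short of 1.2-fold, and of the 36 measured members 5 were past it higher and 3 lower.

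**Figure D2:**
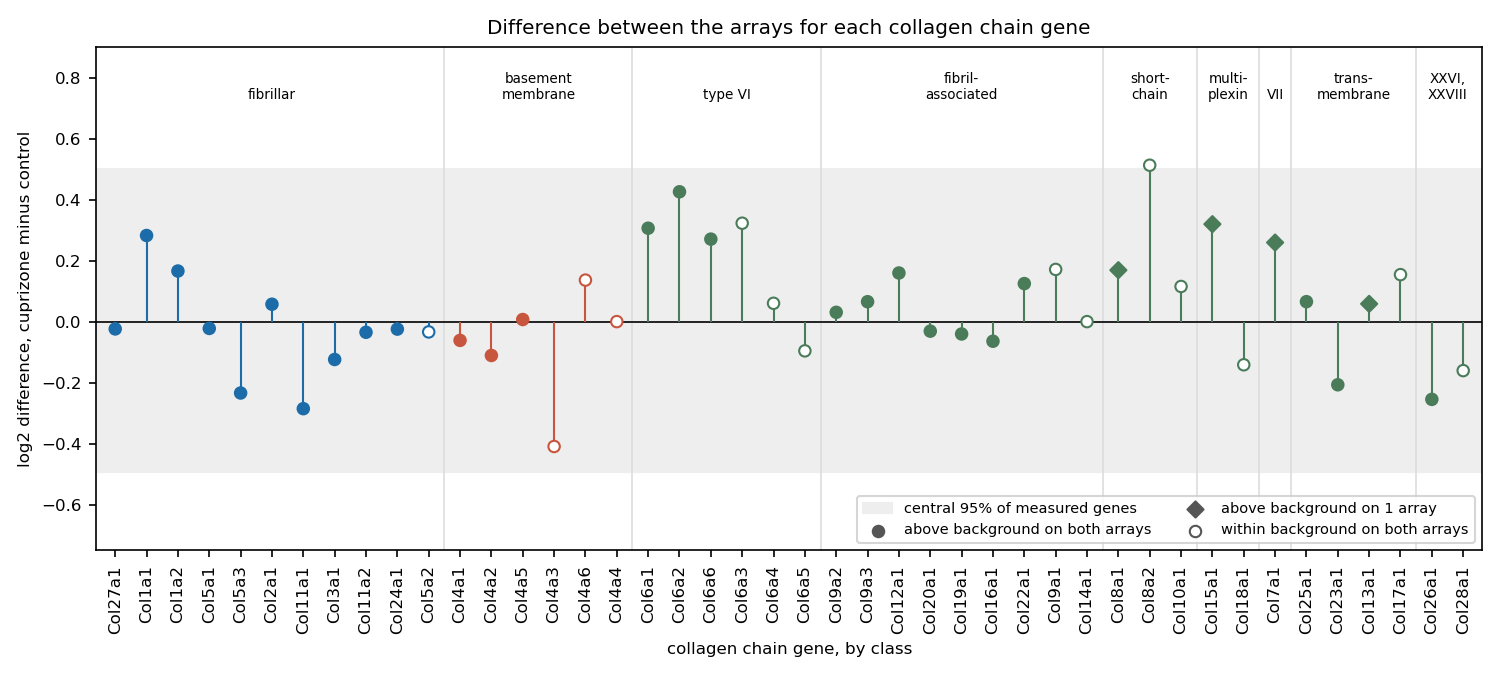
Log2 difference, cuprizone minus control (y axis), of each collagen gene (x axis, by class), with the marker showing whether it lay above the background on both arrays, 1 array or neither. The grey band is the central 95% of measured genes, from -0.49 to 0.50, and Col8a2, within the background on both arrays, is the member outside it. Spike-in scaling moves every point down by 0.26 or 0.38.

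The chains of type VI collagen were the class with the most members past 1.2-fold. Of the 6 chains, 5 were higher on the cuprizone array and 1 lower, with a median of 0.29. Above the background on both arrays, 3 of 3 chains were at least 1.2-fold higher, against 7.49% of all such genes. This fold was chosen after the values were seen. With hybridization spike-in scaling these chains fell short of 1.2-fold, with Col6a1 at 0.04, Col6a2 at 0.16 and Col6a6 at 0.01. With poly-A spike-in scaling Col6a1, Col6a3 and Col6a6 turned to -0.07, -0.05 and -0.11, and Col6a2 was at 0.05. With median centring Col6a6 was at 0.24, short of 1.2-fold. Type VI is secreted as a heterotrimer of the products of Col6a1, Col6a2 and 1 more chain, which can come from Col6a3 or, in place of it, from Col6a4, Col6a5 or Col6a6.

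The 250 bases before the annotated starts of the type VI chains at least 1.2-fold higher are shown because these chains, picked after their values were seen, were higher on the same array as deposited; the letters come from RefSeq on GRCm38.p6, 5′ to 3′ on the gene's strand. Capitals mark matches on either strand to GGGCGG (a GC box) or TGANTCA (an AP-1 site). CCAAT and TATAAA were also searched and had no match in them, and no match overlaps another motif's.
Col6a1: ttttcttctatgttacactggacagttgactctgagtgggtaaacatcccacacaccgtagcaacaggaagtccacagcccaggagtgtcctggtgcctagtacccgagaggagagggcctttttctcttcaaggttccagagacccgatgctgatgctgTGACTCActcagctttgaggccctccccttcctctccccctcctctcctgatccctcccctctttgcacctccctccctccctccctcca
Col6a2: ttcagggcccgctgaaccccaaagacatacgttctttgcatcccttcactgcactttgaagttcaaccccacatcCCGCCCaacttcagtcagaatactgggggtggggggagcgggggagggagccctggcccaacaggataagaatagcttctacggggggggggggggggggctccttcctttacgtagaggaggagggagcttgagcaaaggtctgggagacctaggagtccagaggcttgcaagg
Col6a3: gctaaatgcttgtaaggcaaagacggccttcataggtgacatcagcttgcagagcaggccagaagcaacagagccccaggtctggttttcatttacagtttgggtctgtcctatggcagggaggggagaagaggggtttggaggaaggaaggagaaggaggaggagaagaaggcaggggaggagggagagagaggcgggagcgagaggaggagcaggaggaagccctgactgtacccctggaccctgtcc
Col6a6: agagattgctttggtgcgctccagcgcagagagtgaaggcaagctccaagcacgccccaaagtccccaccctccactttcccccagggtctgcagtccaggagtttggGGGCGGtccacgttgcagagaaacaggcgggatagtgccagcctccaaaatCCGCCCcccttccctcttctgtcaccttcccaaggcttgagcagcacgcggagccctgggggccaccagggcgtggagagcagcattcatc
These windows are chr10:76726045-76726294, chr10:76623631-76623880, chr1:90843972-90844221 and chr9:105828086-105828335, all on the minus strand. The Col6a1 window holds the AP-1 letters 90 bases before its RefSeq start. Such letters are in 6.75% of 32851 windows of the same length and in 1 of 38 collagen windows (2.63%). The array annotation, whose build is not named, ends Col6a1 at 76726168. On the same coordinates that end lies inside the window and places these letters within the gene. The Col6a2 window holds 1 GC box and the Col6a6 window 2, and the Col6a3 window none of these letters. A GC box was present in 32.7% of all windows and in 22 of the 38 windows of the 35 collagen genes matched by symbol (57.9%). CCAAT was in 33.8% of all windows and 34.2% of collagen windows, and TATAAA in 12.4% and 13.2%. None of the motifs searched was present in all 4 type VI windows.

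The level of Col6a1 was 7.12 in the control and 7.42 in the cuprizone sample. The difference of 0.31 (1.24-fold) lay at percentile 97.2 of genes within 0.5 log2 units of its mean level, whose central 95% ran from -0.36 to 0.32. Col6a2, its partner in every type VI trimer, was at 5.55 and 5.97. The difference of 0.43 (1.34-fold) was just past the upper end of the same interval for genes of like level, 0.42, at percentile 97.7. Col6a2 was the 1 member outside that interval. The array annotation places both on the minus strand of chromosome 10, Col6a2 from 76595756 to 76623630 and Col6a1 from 76708792 to 76726168, with 85161 bases between them; no source used here names the build of these coordinates.

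Values for the chains that can take the remaining place in the trimer were mixed. Col6a3, the usual one, was at 4.27 and 4.59, within the background on both arrays. Col6a6 was at 4.89 and 5.16, a difference of 0.27 at percentile 86.8 of genes of like level. Its neighbours on chromosome 9 were within the background on both arrays, with Col6a5 at 3.69 and 3.59 and Col6a4 at 3.99 and 4.05.

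Fibrillar chains lay on both sides of 0. Of 11 chains, 3 were higher on the cuprizone array and 8 lower, with a median of -0.02 and a range from -0.29 to 0.28. With spike-in scaling the median was -0.29 (hybridization) and -0.40 (poly-A). The 2 chains of type I collagen, the main fibril of meninges, skin and bone, were both higher as deposited, although with poly-A scaling Col1a1 turned to -0.09 and Col1a2 to -0.21 (-0.10 with hybridization spike-ins). Col1a1 was at 5.55 in the control and 5.83 in the cuprizone sample, which is 1.22-fold. Col1a2, which joins 2 copies of the Col1a1 product in the type I trimer, was at 5.50 and 5.67, a difference of 0.17. Col3a1, which co-assembles with type I in vessel walls and whose protein is a ligand of the receptor Adgrg1, was at 4.92 and 4.80.

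The remaining fibrillar chains, of which those of types V and XI nucleate fibrils and set their diameter, differed by between -0.29 and 0.06. Col5a1, the main chain of type V, was at 5.59 and 5.57, and Col5a2, its partner, was within the background at 4.42 and 4.39. Col5a3, another type V chain, was at 5.38 and 5.15, a difference of -0.23. Col11a1, a type XI chain that acts as a core of cartilage fibrils, was at 5.02 and 4.73, the lowest difference of the class at -0.29 (1.22-fold lower). It lay at percentile 11.7 of genes of like level. Col11a2, another type XI chain, was at 4.86 and 4.83. The cartilage chain Col2a1 was at 4.91 and 4.97, Col24a1 at 4.77 and 4.74, and Col27a1, a cartilage fibrillar chain, at 5.77 and 5.75. All values of this paragraph lay inside the central 95% of genes of like level.

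Basement membrane chains differed little where they were above the background. Of 6 chains, 2 were higher, 3 lower and 1 listed at the same value, with a median of -0.03 over all of them and -0.09 over the 4 measured, which spike-in scaling moved to -0.35 and -0.46. Of the 4, Col4a3, within the background on both arrays, was measured through the control array alone and had to be lower. Over the 3 chains above the background on both arrays the median was -0.06. Col4a1 and Col4a2 form the trimer found in nearly every basement membrane, that of brain capillaries included. Col4a1 was at 5.52 (control) and 5.45 (cuprizone), and Col4a2 at 5.53 and 5.42. These genes lie head to head on chromosome 8, where their annotated intervals overlap by 22 bases, and their differences, -0.06 and -0.11, were 0.05 apart.

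The other type IV pairs also lie head to head. Col4a3 and Col4a4, whose products join that of Col4a5 in the kidney filter, have 71 bases between them on chromosome 1, and both were within the background on both arrays. Col4a3 was at 4.40 and 3.99 and Col4a4 at 3.95 on each. Col4a5 and Col4a6 have 1308 bases between them on the X chromosome. Col4a5 was above the background at 4.80 on each array, a difference of 0.01, whereas Col4a6 was within it at 3.98 and 4.11. A member listed at the same value on both arrays was not unusual here, since 1689 of all 30920 genes were.

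Chains that sit at the edge of basement membranes were mixed. Col15a1, a proteoglycan collagen of vessel basement membranes, was within the background in the control sample (4.54) and above it in the cuprizone sample (4.86), a difference of at least 0.18. Its relative Col18a1, the source of endostatin, was within the background at 4.32 and 4.18. Col7a1, the anchoring fibril chain of skin, was at 4.59, within the background, and 4.85, a difference of at least 0.17. Counting these 3 with the basement membrane chains gave a median of -0.03 over the 6 measured.

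Fibril-associated chains, which coat fibrils without forming them, showed 5 higher, 3 lower and 1 listed at the same value. Col9a2 and Col9a3, chains of the type IX trimer, were at 5.69 and 5.73, and at 5.41 and 5.47. The remaining type IX chain, Col9a1, was within the background at 4.22 and 4.39. Col12a1, which binds type I fibrils, had the largest difference among those above the background on both arrays, with 5.08 and 5.24, a difference of 0.16. Col14a1, a relative of it, was listed at 4.05 on both arrays, within the background. Col16a1 was at 5.10 and 5.03, Col19a1, which some brain interneurons make, at 5.11 and 5.07, and Col22a1, a chain of tissue junctions, at 4.78 and 4.90. Col20a1 was at 5.16 and 5.13 on the probe set used, and its other probe set gave a difference of -0.16 (4.68 and 4.52).

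Short-chain network collagens were near or within the background. Col8a1, which lies under endothelium in vessel walls and the cornea, was at 4.62, within the background, and 4.79, a difference of at least 0.11. Col8a2, its partner, was at 4.05 and 4.56, within the background on both arrays, so that its difference of 0.51 is given with no fold. Col10a1, the chain of hypertrophic cartilage, was within it at 4.05 and 4.17.

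Col25a1, a neuronal transmembrane collagen whose shed ectodomain is found in amyloid plaques, was at 5.97 and 6.04, a difference of 0.07. Col23a1, a transmembrane chain, was at 5.72 and 5.51, a difference of -0.21. Col13a1, a transmembrane chain of the neuromuscular junction, was at 4.66, within the background, and 4.72. Col17a1, a hemidesmosome chain of epithelia, was within the background at 4.28 and 4.43. Col26a1 was at 5.51 and 5.25, which is 1.19-fold lower and the second lowest difference among chains above the background on both arrays. Col28a1, known from peripheral nerve, was within the background at 3.72 and 3.55.

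**Figure D3:**
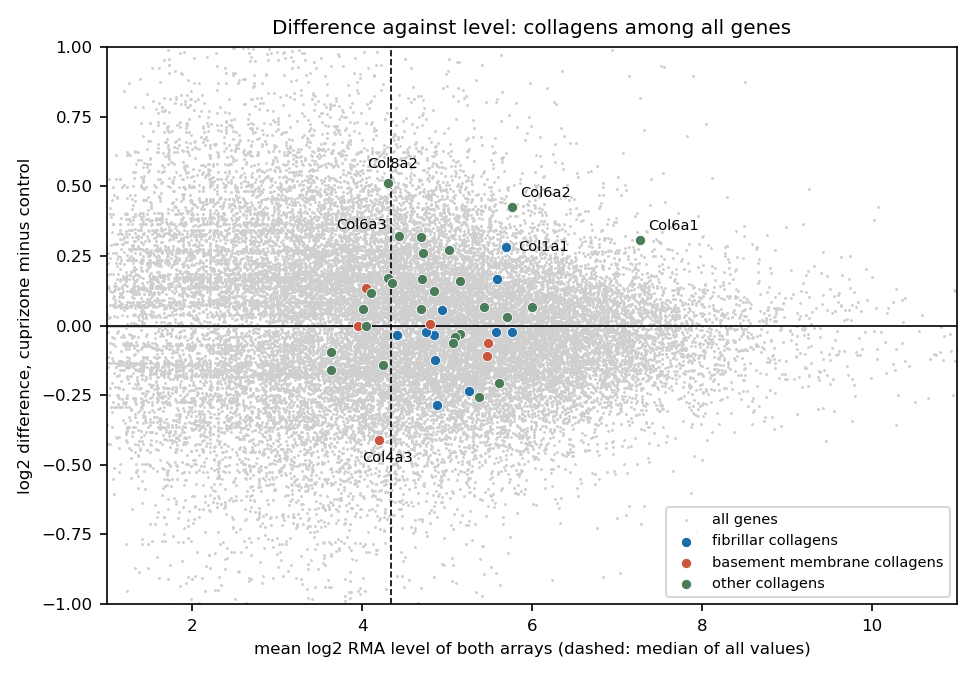
Log2 difference, cuprizone minus control (y axis), against the mean log2 level of both arrays (x axis) for all genes in grey and the collagens in colour by class; the dashed line is the median of all values, 4.34, and genes past 1 log2 unit are not drawn. The spread of all genes narrows with level, and Col6a1 (0.31) and Col6a2 (0.43) lie near its upper edge; spike-in scaling turns Col6a1 to -0.07 (poly-A) and leaves Col6a2 at 0.05.

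The classes were not tested against each other. The measured members had medians of -0.02 (11 fibrillar), -0.09 (4 basement membrane) and 0.15 (21 other; -0.11 with hybridization spike-ins, -0.22 with poly-A spike-ins), beside -0.01 over all measured genes. Over all members, measured or not, they were -0.02, -0.03 and 0.07, and over those above the background on both arrays -0.02, -0.06 and 0.07. Of the 36 measured members, 4 were measured through the cuprizone array alone and 1 through the control array alone. Each of the 4 members had to be higher on the cuprizone array and the 1, Col4a3, lower, so the medians over measured members are given as a description.

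Machinery that folds and cross-links collagen was near 0 as a list. Of 20 enzymes and chaperones of collagen folding, 17 were measured, with 9 higher, 7 lower and a median of 0.01, and 1 was at least 1.5-fold higher, P4ha3, a prolyl hydroxylase subunit within the background on both arrays (3.75 and 4.48). Serpinh1, the collagen chaperone of the endoplasmic reticulum, was at 5.27 and 5.01. P3h2, a prolyl 3-hydroxylase, was at 4.78 and 5.04, and Crtap, a partner of such enzymes, at 5.21 and 5.01. Processing and cross-linking enzymes had a median of 0.02 over 8 measured of 13, with 0 past 1.5-fold in either direction. Pcolce2, an enhancer of procollagen cleavage, was at 5.32 and 5.71. Loxl4 was above the background on the control array only (4.84 and 4.54), and Loxl3, another lysyl oxidase, was at 5.07 and 4.82. Lox, the founding member of that family, was within it at 3.19 and 3.11.

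Proteases that cut collagen and their inhibitors had a median of 0.02 over 7 measured of 12. Timp4, a metalloprotease inhibitor, was the member at least 1.5-fold lower, with levels of 5.61 and 4.91. Mmp14, a membrane collagenase, was at 6.15 and 6.40, and Timp2, its partner in activating Mmp2, at 6.92 and 7.05. Timp1, which reactive astrocytes induce, was within the background at 2.47 and 3.09. Among collagen receptors, 9 of 11 were measured, with 5 higher, 3 lower and a median of 0.09, which turned to -0.17 with hybridization and -0.28 with poly-A scaling. Itga10 (4.25 and 4.47) and Itga11 (4.40 and 4.21) lay within the background on both arrays. Itga10 was measured through the cuprizone array alone and had to be higher, and Itga11 through the control array alone and had to be lower. Mrc2, an endocytic collagen receptor, was at 5.20 and 5.61, Ddr2, a receptor kinase for fibrillar collagen, at 5.16 and 5.47, and Itga1, the integrin chain that prefers type IV, at 5.75 and 5.49. Ddr1, the receptor kinase of epithelia and oligodendrocytes, was at 6.43 and 6.52.

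Partners of the basement membrane chains were lower more often than higher, and partners of fibrils higher more often than lower as deposited. Of measured genes 45.3% were higher and 51.6% lower. All 16 basement membrane partners were measured, with 4 higher, 11 lower and a median of -0.18, and 6 were at least 1.2-fold lower, against 12.3% of measured genes. Lamc3, a laminin chain, was at 5.50 in the control sample and within the background in the other (4.64), at least 1.74-fold lower. Lamc1, the laminin chain of most basement membranes, was at 6.42 and 6.14, Lama3 at 5.27 and 4.98, and Sparc, a chaperone-like binder of type IV, at 7.95 and 7.68. Of the 14 fibril partners, 12 were measured, with 9 higher, 3 lower and a median of 0.14, which turned to -0.13 with hybridization and -0.24 with poly-A scaling. Fmod, a proteoglycan that binds type I fibrils, was at 6.36 and 6.76, Tnc, a matrix protein of reactive tissue, at 5.05 and 5.44, and Tgfb1, an inducer of fibrillar collagen, at 4.98 and 5.32.

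Markers of vascular, meningeal and glial cells differed in direction between lists. Of 10 endothelial markers, 9 were measured and all 9 were lower, with a median of -0.38 and summed linear levels of 677 (control) and 552 (cuprizone). Ly6c1, not measured, was higher within the background (3.32 and 3.65). Esam (4.69 and 4.56) lay above the background on the control array only, and with the bound in place of its cuprizone value its difference was 0.01. Cldn5, a tight junction protein of brain vessels, was at 5.78 and 5.19. Fibroblast and meninges markers had 9 higher and 2 lower of 11 measured of 12, with a median of 0.15 (-0.11 and -0.22 with hybridization and poly-A scaling) and summed levels of 700.2 and 783. Lum and Aldh1a2 of that list were within the background on both arrays. Aldh1a2 (4.25 and 4.36) was measured through the cuprizone array alone and had to be higher, and Lum, not measured, was lower (3.14 and 2.45). Mural markers had 6 higher and 4 lower of 10, with a median of 0.04 (-0.22 and -0.34 with hybridization and poly-A scaling) and summed levels of 777 and 749. Tagln (4.20 and 4.44) and Higd1b (4.19 and 4.57) of that list, within the background, were measured through the cuprizone array alone and had to be higher. Choroid plexus markers had 5 higher and 2 lower of 7 measured of 8, with a median of 0.06 (-0.21 and -0.32 with hybridization and poly-A scaling), and summed levels of 1188 and 1506, of which most came from Ttr (9.86 and 10.28). Reactive astrocyte markers had 6 of 6 measured of 8 higher, with a median of 1.05 and summed levels of 420 and 1058. Of the 8, 4 lay within the background on both arrays, Lcn2, Steap4, Cd44 and Timp1. Lcn2 and Cd44 were measured through the cuprizone array alone and had to be higher. Steap4, not measured, was lower (4.06 and 3.44), and Timp1, not measured either, was higher. Microglia markers had 9 higher and 1 lower of 10, with a median of 0.59 and summed levels of 637 and 1024, and none lay within the background on both arrays. The part of these markers in the collagen values was not tested, and in whole tissue fewer cells of a type and less RNA per cell cannot be told apart.

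**Figure D4:**
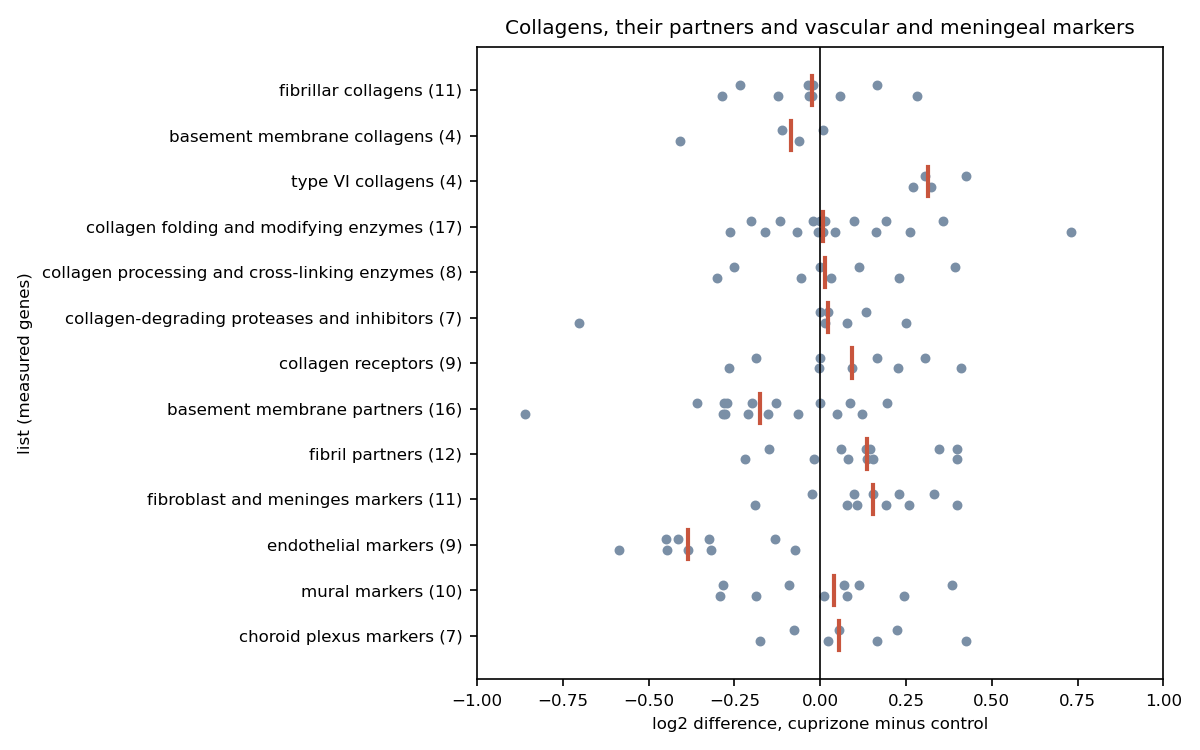
Log2 difference, cuprizone minus control (x axis), of the measured genes (points) in 3 collagen classes, 6 lists of collagen partners and 4 marker lists (y axis, number measured in brackets), with the median as a red bar. The measured endothelial markers all lie below 0 and the 4 measured type VI chains all above it as deposited. Col6a3 was measured through the cuprizone array alone, so it had to lie above 0. Of the type VI chains not measured and so not drawn, Col6a4 was higher and Col6a5 lower. Spike-in scaling moves every point down by 0.26 or 0.38, which puts 3 of the type VI chains below 0 with poly-A scaling.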

How the data were processed

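RNA of 1 control and 1 cuprizone sample was hybridised to whole-transcript arrays. The deposited values are log2 levels, which the authors obtained by RMA; Affymetrix Power Tools is named too, per the submitters' processing notes. The genome build, like any version, was not given in the sources used here. RMA equalises the arrays' distributions, so a shift of total RNA would be removed. The values of 41345 probe sets stand in both tables, with a largest discrepancy of 5e-05. Array medians were 4.33 and 4.36.

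Symbols came from the deposited table, and 1469 receptor genes set the background. All 44 members had a gene ID in the RefSeq table for GRCm38.p6 under the same symbol. For a gene within the background on 1 array, the bound replaced that value and the difference is written "at least". Differences had no further centring, and with 1 array per group no test, SE or SD was computed. The members and lists were chosen with earlier results of these data known. Named were all collagens, and per partner list the 3 genes above background on at least 1 array with the largest absolute difference, plus Serpinh1, Ddr1, Lox, Sparc and Timp1; P4ha3 and genes of the marker lists were chosen once values had been seen. Alternatives covered scaling, the probe set rule, level filters and class membership. The calculation was tested on simulated data. Python 3.11.15, pandas 2.3.3 and statsmodels 0.14.6 were used.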

Additional observations from a re-analysis of the deposited data

How the results depend on the processing

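With 1 array per group, no replicate could be left out, and the number of arrays and the signal over background limit every value. No paired analysis was possible because each group had 1 array and no result came from a test. Each of the 24 results recomputed moved by less than 0.1, or by at most 1.5 times for a count, under median centring, lowess, quantile normalization, the other table, the mean of probe sets and no level filter. With median centring, members at least 1.2-fold higher went from 7 to 5 and members at least 1.2-fold lower from 2 to 3. Col1a1 (0.25) and Col6a6 (0.24) then fell short of 1.2-fold. All 24 moved with each spike-in scaling. Hybridization spike-ins gave medians of -0.22 (all collagens), -0.29 (fibrillar), -0.35 (basement membrane), -0.11 (other) and 0.053 (type VI), beside -0.27 over all measured genes. Poly-A spike-ins gave -0.33, -0.40, -0.46, -0.22 and -0.062, beside -0.39. Partner list medians became -0.25 and -0.37 (folding), -0.25 and -0.36 (cross-linking), -0.24 and -0.35 (proteases), -0.17 and -0.28 (receptors), -0.44 and -0.55 (basement membrane partners) and -0.13 and -0.24 (fibril partners). Members at least 1.2-fold higher went from 7 to 0 with both scalings, to 3 of 9 with the 75th percentile filter (5.55), and to 4 with background values raised to the bound or with both arrays above it. That last filter and the 1.2-fold threshold were added after seeing the data. Members at least 1.2-fold lower went from 2 to 16 and 22 with the scalings, to 0 of 9 with the 75th percentile filter, and to 1 with the filter on the mean and with each setting of the bound. Members past 1.5-fold went from 0 to 1 and 4 with the scalings and stayed at 0 with a 2-fold threshold. The median of the other collagens was 0.043 with background values raised.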
